A study of Mus musculus with 4 samples.

Results

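The genes examined were the tau gene Mapt and 7 genes for kinases, or kinase activators, that act on tau, namely Gsk3b, Cdk5, Cdk5r1, Fyn, Dyrk1a, Mark1 and Ttbk1. They were taken by gene symbol, and all 8 were present among the 32285 genes listed for each of the 4 libraries. The measurements were single-nucleus RNA sequencing of snap-frozen mouse hippocampus, with 1 library in each of 4 groups. The groups were C57BL/6J wild type (WT) without exercise, WT with exercise, App NL-G-F knock-in without exercise and App NL-G-F knock-in with exercise. All mice were female and 8 weeks old at the start, and exercise was voluntary wheel running for 10 weeks. App NL-G-F mice express, from their own App gene, an amyloid precursor protein with a humanised amyloid-beta stretch and familial Alzheimer mutations, and they deposit amyloid without added tau mutations.

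Tau is a protein that binds and stabilises microtubules, above all in axons. Its binding is set by phosphorylation, and in Alzheimer's disease heavily phosphorylated tau leaves microtubules and forms neurofibrillary tangles. Gsk3b and Cdk5 are the classical proline-directed tau kinases, and Cdk5r1 encodes an activator of Cdk5. Fyn, Dyrk1a, Mark1 and Ttbk1 modify other residues or prime tau for further phosphorylation. The data count RNA in nuclei and hold no measure of tau protein, its phosphorylation or kinase activity.

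The deposited barcodes carried 64158446 to 91676884 unique molecular identifiers (UMIs, counted RNA molecules) per library, with a median of 5189 to 7340 per barcode. The shallowest deposited barcode held 1199 UMIs in the knock-in with exercise, against 500 to 504 in the other libraries. A minimum of 1200 UMIs is among the other settings given below. After filters 34744 nuclei were kept, and pairs of libraries shared 17 to 37 barcodes. Nuclei fell into 29 clusters, of which 21 could be named from marker genes and 8, with 4422 nuclei, could not. Of the 697 nuclei of unnamed cluster 17, a shallow cluster, 81.6% came from the knock-in with exercise. Levels are given for 14 classes, and libraries were compared in 8 of them. Levels in CPM are UMIs of a gene summed over a class and library, divided by all UMIs of that class and library and scaled to a fixed total. The markers of each compared neuron class, oligodendrocytes, their precursors, astrocytes and microglia were detected in every library. The microglia of WT with exercise stood apart, with 59 nuclei, a median of 8486 UMIs against 1707 to 2665.5 in the other libraries, and microglia markers summing to 1265 CPM against 2632 to 3829. A treatment note in the labels mentions a wheel for every sample, whereas titles set 2 groups apart as not exercised, and the titles were followed. The number of mice behind a library is not stated, nothing separates mice from libraries, and UMIs at the end of App do not separate the alleles, so the genotype labels were not checked. Because each group was 1 library, no test was possible. Intervals below are 95% counting intervals and leave out differences between mice and between library preparations.

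Mapt (ENSMUSG00000018411) lies on chromosome 11 from 104231390 to 104332090 on the plus strand of GRCm38 and spans 101 kb. Cdk5r1 lies on the same chromosome from 80477023 to 80481184, and at 4.16 kb it is the shortest of the 8. Gsk3b and Dyrk1a share chromosome 16, at 38089001 to 38246084 and at 94570010 to 94695517, and span 157 and 126 kb. Cdk5 is on chromosome 5 from 24418241 to 24423530 and spans 5.29 kb. Fyn is the longest at 197 kb, on chromosome 10 from 39368855 to 39565381, Mark1 is on chromosome 1 from 184896789 to 184999570 with 103 kb, and Ttbk1 is on chromosome 17 from 46442448 to 46487675 with 45.2 kb. Cdk5, Mark1 and Ttbk1 are on the minus strand and the others on the plus strand. Mapt and Mark1 overlap the antisense genes Gm11659 (5111 UMIs over all kept nuclei) and Gm38251 (3294 UMIs), Fyn overlaps Gm16365 (372 UMIs) and Gm16364 (42 UMIs), and Ttbk1 overlaps Gm47119 (9 UMIs). These partners lie on the other strand and are counted under their own identifiers. Ttbk1 also overlaps the long noncoding RNA gene Gm26904 on the other strand, over 16175 bases. Gm26904 is not among the listed genes and has no count of its own. Shorter overlaps with small RNA genes and pseudogenes, among them Gm15971 on the strand of Dyrk1a, are likewise without counts. The use of strand in counting is not given, and whether reads of these overlapping genes entered the counts of the members was not checked.

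RefSeq promoter windows on build GRCm38.p6 were found for 5 of the 8 genes, namely Gsk3b, Fyn, Dyrk1a, Mark1 and Ttbk1. The 250 bases before the annotated start are shown for Ttbk1 (minus strand) and Gsk3b (plus strand), the genes with a wide and a narrow spread between libraries in neurons. Capitals mark GC boxes (GGGCGG on either strand) and CCAAT boxes (CCAAT on either strand), which did not overlap each other. The windows are chr17:46487676-46487925 for Ttbk1 and chr16:38088751-38089000 for Gsk3b.
Ttbk1: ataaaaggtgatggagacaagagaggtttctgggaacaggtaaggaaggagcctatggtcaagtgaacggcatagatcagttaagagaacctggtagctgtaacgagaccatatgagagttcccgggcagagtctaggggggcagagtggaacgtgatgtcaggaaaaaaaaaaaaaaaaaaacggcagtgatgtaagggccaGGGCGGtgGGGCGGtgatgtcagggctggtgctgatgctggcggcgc
Gsk3b: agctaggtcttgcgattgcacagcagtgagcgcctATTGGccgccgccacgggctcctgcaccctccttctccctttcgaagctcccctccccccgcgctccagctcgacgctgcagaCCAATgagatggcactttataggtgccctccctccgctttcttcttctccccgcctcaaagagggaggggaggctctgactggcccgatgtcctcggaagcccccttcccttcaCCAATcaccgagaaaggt
The Ttbk1 window held 2 GC boxes and 0 CCAAT boxes, and the Gsk3b window held 0 GC boxes and 3 CCAAT boxes. Among 32851 promoter windows of the same length, 32.7% held a GC box and 33.8% a CCAAT box. The GC content was 51.6% for Ttbk1 and 62% for Gsk3b, against a median of 52.4%. A match describes the letters of the window and not binding by a factor.

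Mapt was highest in oligodendrocytes and lowest in endothelial cells. Oligodendrocytes, the myelinating glia, held 1932 CPM in WT without exercise, 1893 in WT with exercise, 1525 in knock-in without exercise and 1967 in knock-in with exercise. Every one of these values lay above every value of any other class. The next class, oligodendrocyte precursors, held 505, 441, 562 and 674 CPM in the same order of libraries, which is kept below. Endothelial cells held 101, 93.3, 121 and 164 CPM, below every value of the other classes.

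Neurons lay between these glia and vessels. Dentate granule neurons held 364, 308, 319 and 466 CPM of Mapt, CA1 neurons 376, 332, 330 and 471 and CA3 neurons 457, 420, 390 and 606. Inhibitory neurons held 407, 367, 352 and 527 CPM. Of the 13 neighbouring pairs in the order of 14 class means, 11 had overlapping ranges over the libraries. The exceptions were the step from oligodendrocytes to their precursors and the step from microglia to endothelial cells. Per nucleus rather than as CPM the order was another one. Oligodendrocytes carried 3.72, 3.56, 2.24 and 5.86 Mapt UMIs per nucleus, whereas CA3 neurons carried 5.72, 6.75, 4.18 and 8.56. Astrocytes held 268, 273, 301 and 451 CPM and microglia 288, 268, 308 and 280 CPM.

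**Figure D1:**
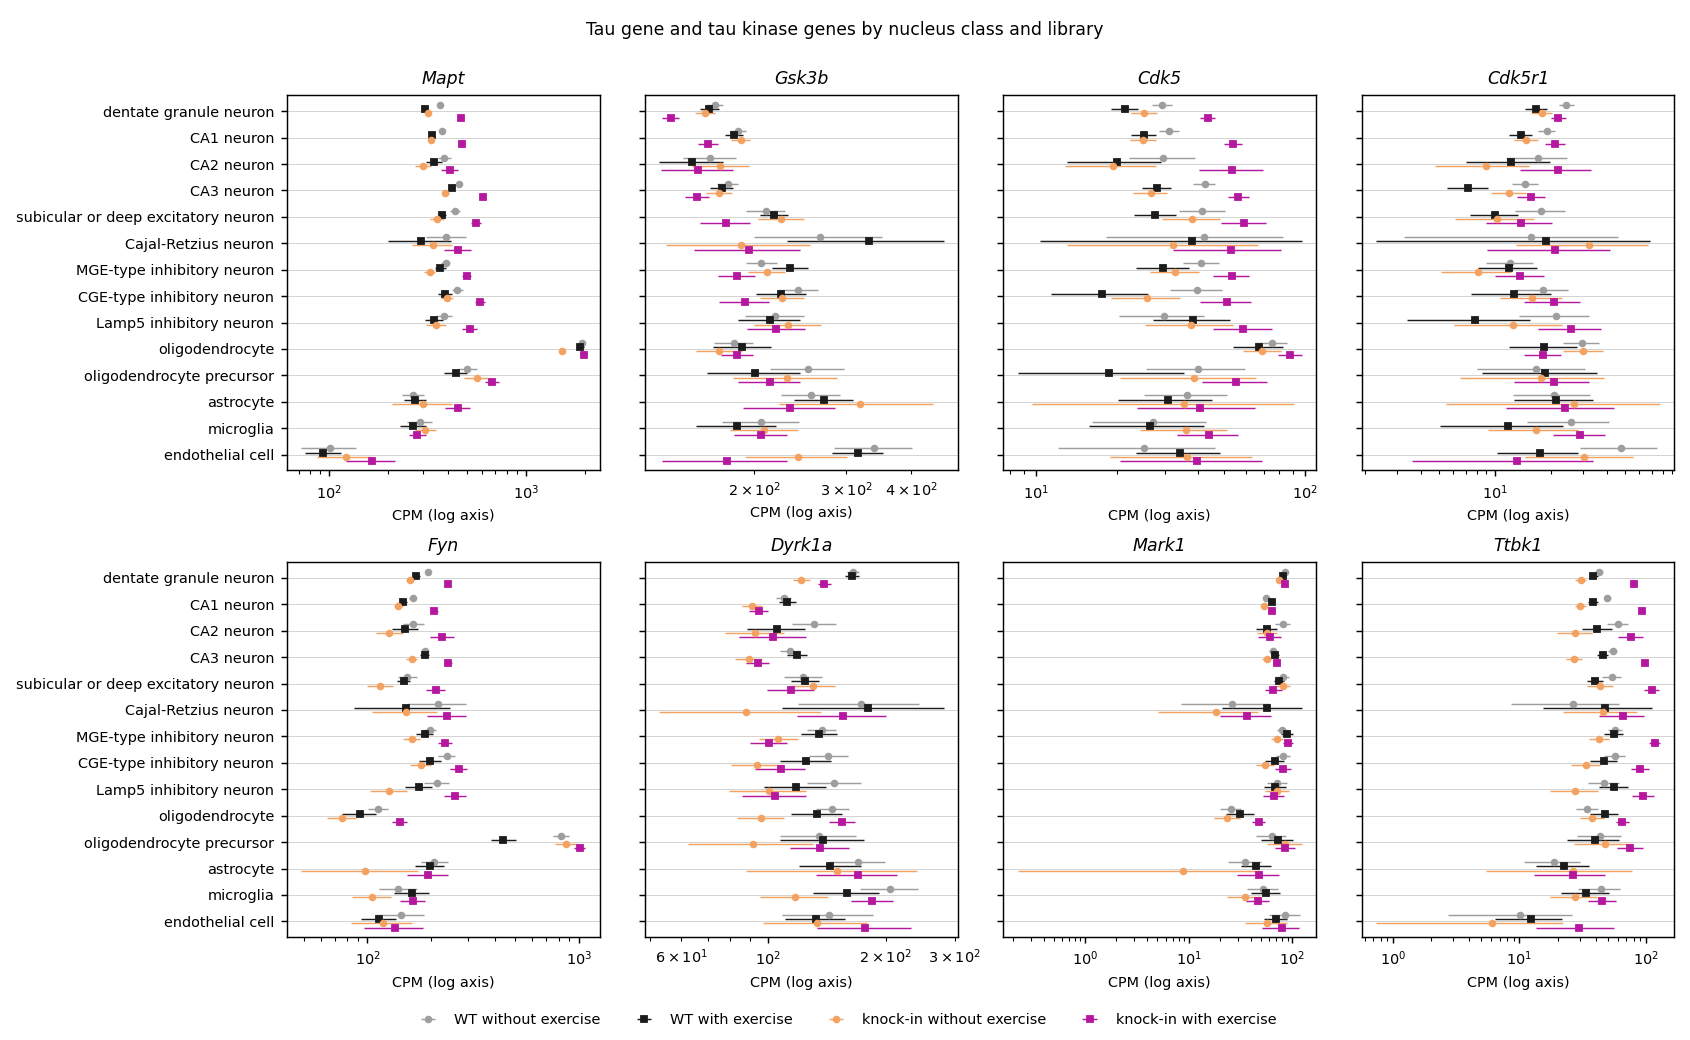
Level of each of the 8 genes (CPM, log axis) in 14 nucleus classes, with 1 point per library and its 95% counting interval. Mapt and Cdk5 peak in oligodendrocytes, Fyn peaks in oligodendrocyte precursors, and the knock-in with exercise is the highest library for Ttbk1 in 13 of the 14 classes.

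The share of nuclei with a Mapt UMI followed the levels in neurons when nuclei were thinned to 1500 UMIs and shallower ones left out. In oligodendrocytes it was 92.9%, 93.2%, 89.3% and 94.2%, against 95.1%, 95.6%, 85.9% and 98.9% over all nuclei before thinning. Thinning left out 266, 172, 985 and 5 oligodendrocyte nuclei, so the value of the knock-in without exercise covers only 515 of its 1500. In CA3 neurons the thinned share was 51.3%, 46.4%, 43.9% and 59.7%. Endothelial cells, which are not known for tau, gave 17.6%, 8.28%, 8.33% and 14.8%, a share that is read as background here. That these nuclei lack Mapt was assumed and not shown. Their cluster was also raised in the pericyte or smooth muscle markers Rgs5, Vtn, Kcnj8, Abcc9, Atp13a5, Acta2 and Myh11. The unthinned shares of endothelial cells were 21.7%, 21.9%, 32.3% and 27.3%, at median depths of 1952, 2430, 4757 and 2778.5 UMIs, against 1792.5, 1738, 1351 and 2811.5 UMIs in oligodendrocytes. In granule neurons the thinned Mapt share was 41.9% (40.1 to 43.7), 36.0% (33.8 to 38.2), 38.5% (36.6 to 40.4) and 49.9% (48.0 to 51.9), so the knock-in with exercise lay above the other libraries beyond counting error.

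**Figure D2:**
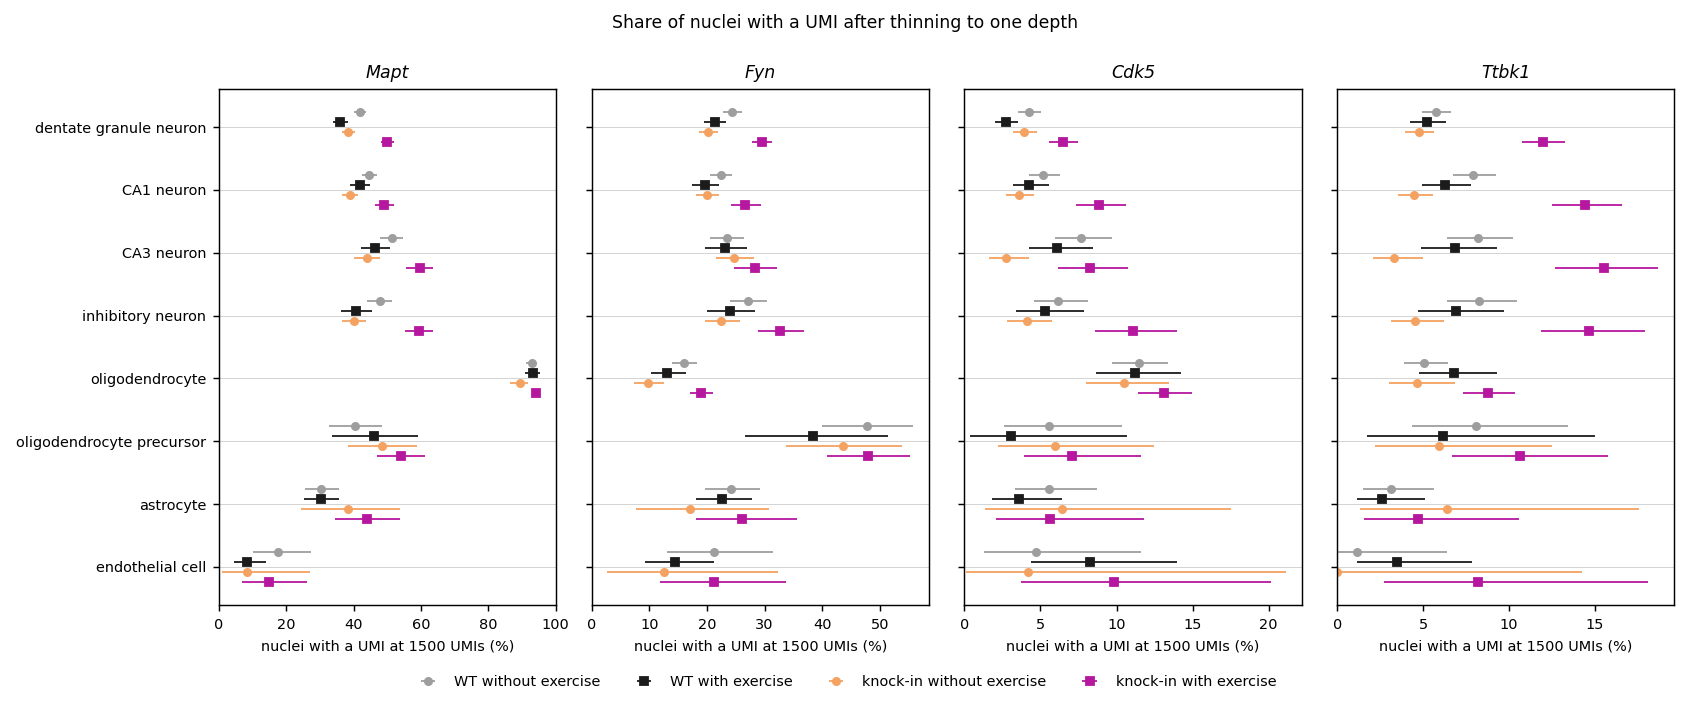
Percentage of nuclei with at least 1 UMI of Mapt, Fyn, Cdk5 and Ttbk1 after thinning to 1500 UMIs, without nuclei below that depth, by class and library, with 95% Clopper-Pearson intervals that cover counting error only. Mapt was found in 89.3% to 94.2% of the oligodendrocyte nuclei deep enough to thin (515 of 1500 in the knock-in without exercise), and Ttbk1 in 12% to 15.5% of nuclei in the 4 neuron classes of the exercised knock-in.

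Gsk3b, which encodes a constitutively active kinase held in check by Akt and Wnt signalling, was close to even across libraries in neurons. Granule neurons held 168, 164, 161 and 138 CPM, CA1 neurons 186, 183, 188 and 163 and CA3 neurons 178, 173, 171 and 155. Inhibitory neurons held 219, 228, 219 and 193 CPM. The knock-in with exercise was the lowest library in each of these neuron classes, and stayed below the 2 libraries it was compared with under all 9 other settings, while the other 3 libraries lay close together. The class means ran from 158 CPM in granule neurons to astrocytes, which held 257, 272, 319 and 234 CPM, and all 13 neighbouring pairs of classes overlapped. In oligodendrocytes Gsk3b held 183, 190, 171 and 185 CPM. No value of Gsk3b was called in any class and comparison.

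Cdk5, a kinase that is active with its neuronal activators, was also highest in oligodendrocytes. It stood at 75.0, 67.1, 69.1 and 87.6 CPM there, above every other class mean beyond the spread over libraries. Granule neurons held 29.3, 21.3, 25.2 and 43.3 CPM, CA1 neurons 31.1, 25.0, 24.9 and 53.9 and CA3 neurons 42.2, 28.0, 26.6 and 56.4. Inhibitory neurons held 38.9, 28.0, 31.2 and 53.6 CPM. The knock-in with exercise was the highest library in all 14 classes, and WT with exercise was the lowest in 8 of them. In CA3 neurons WT without exercise lay between the knock-in with exercise and the other 2 libraries.

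Cdk5r1, the gene of a Cdk5 activator, gave few UMIs. It stood at 24.3, 16.7, 17.9 and 22.0 CPM in granule neurons (467, 228, 222 and 434 UMIs), at 19.0, 13.8, 14.8 and 21.2 in CA1 neurons, at 14.6, 7.21, 12 and 15.7 in CA3 neurons and at 15.2, 11.3, 11.4 and 17.9 in inhibitory neurons. WT without exercise and the knock-in with exercise were the 2 higher libraries in each of these classes. Oligodendrocytes held 29.4, 18.5, 30 and 18.3 CPM on 83, 24, 66 and 78 UMIs. There the libraries without exercise were the higher ones, unlike in neurons. The range over the libraries in every class overlapped that of the next class in the order of means. The highest class mean, 27.2 CPM, was that of endothelial cells and rests on 4 to 19 UMIs per library.

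Fyn encodes a Src-family tyrosine kinase that acts at synapses and in the myelin lineage. It was highest in oligodendrocyte precursors at 821, 438, 870 and 1006 CPM and lowest in mature oligodendrocytes at 112, 91.8, 75.5 and 142 CPM. No library of any other class reached the lowest precursor value. The cluster named as precursors was raised in precursor markers by a median log2 fold of 5.63 over the other nuclei. It was also raised by 4.86 in markers of committed precursors, namely Bcas1, Enpp6, Itpr2, Tcf7l2 and Gpr17. The part of committed precursors in the Fyn values was not tested. Neurons held intermediate levels, with 193, 170, 158 and 240 CPM in granule neurons, 163, 148, 140 and 207 in CA1, 187, 187, 162 and 241 in CA3 and 211, 187, 162 and 248 in inhibitory neurons. The knock-in without exercise was the lowest library and the knock-in with exercise the highest in each of these 4 neuron classes and in mature oligodendrocytes. The thinned share of precursors with a Fyn UMI was 47.8%, 38.5%, 43.6% and 48.0%, and the intervals of all 4 libraries overlapped. In mature oligodendrocytes it was 16%, 13.2%, 9.71% and 19.0%, below the 21.2%, 14.5%, 12.5% and 21.3% of endothelial cells. The unthinned shares of precursors were 67.5%, 69.7%, 52.9% and 80.0%, at median depths of 3280, 3780, 2515 and 4479 UMIs.

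Dyrk1a, which encodes a kinase that primes tau for Gsk3b, was lower in both knock-in libraries than in both WT libraries in the 4 neuron classes compared. No value there was past the size for a call. Granule neurons held 165, 164, 122 and 139 CPM, CA1 neurons 110, 112, 90.9 and 94.5 and CA3 neurons 114, 119, 89.3 and 94.0. Inhibitory neurons held 140, 129, 101 and 103 CPM. Of the knock-in libraries, the one without exercise was the lower in each of these 4 classes. In CA1, CA3 and inhibitory neurons the counting interval of their ratio held equal levels. In inhibitory neurons of the medial ganglionic eminence type the knock-in with exercise was the lowest library, at 100 CPM. In subicular or deep excitatory neurons the knock-in without exercise was the highest library at 130 CPM. In oligodendrocytes the order was another one, with 146, 133, 95.9 and 155 CPM, where only the knock-in without exercise was low. Among the 14 classes the highest mean was in microglia at 205, 159, 117 and 185 CPM, and all neighbouring pairs overlapped.

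Mark1 encodes a kinase that phosphorylates the microtubule-binding repeats of tau. None of its neuron values was called. It stood at 85.2, 82.1, 74.0 and 84.7 CPM in granule neurons, 56.3, 63.3, 53.7 and 63.1 in CA1, 64.9, 68.2, 56.8 and 70.7 in CA3 and 79.0, 78.6, 65.9 and 83.8 in inhibitory neurons. The highest library was 1.15 times the lowest in granule neurons, 1.18 times in CA1, 1.24 times in CA3 and 1.27 times in inhibitory neurons. The knock-in without exercise was the lowest library in each, although in CA1 and CA3 neurons 1 of 9 other settings turned its order against WT without exercise. Oligodendrocytes had the lowest class mean, at 25.5, 31.6, 23.6 and 47.3 CPM on 72, 41, 52 and 202 UMIs, and there the knock-in with exercise was the highest library.

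Ttbk1, a tau kinase of the casein kinase group known for expression in neurons, had the largest ratio of highest to lowest library among the members in each of the 4 neuron classes compared. Granule neurons held 42.6, 38.4, 30.5 and 79.8 CPM (818, 524, 379 and 1574 UMIs). CA1 neurons held 49.5, 38.2, 30.3 and 92.5 CPM and CA3 neurons 54.8, 45.5, 27.0 and 97.4. Inhibitory neurons held 55.2, 53.0, 37.2 and 105 CPM. In each of these classes the knock-in without exercise was the lowest library, the knock-in with exercise the highest, and the WT libraries lay between them. Inhibitory neurons of the medial ganglionic eminence type had the highest class mean at 67.9 CPM, and astrocytes (18.7, 22.5, 26.5 and 26.3 CPM) and endothelial cells (10.1, 12.4, 6.06 and 29.6 CPM) the lowest. The step between microglia and astrocytes was the one neighbouring pair without overlap.

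The thinned share of nuclei with a Ttbk1 UMI followed the same order. In CA3 neurons it was 8.16% (6.39 to 10.2), 6.84% (4.86 to 9.30), 3.32% (2.09 to 4.98) and 15.5% (12.7 to 18.7). The unthinned CA3 shares were 46.8%, 48.5%, 24.1% and 70.8%, at median depths of 12274, 15348, 9911 and 12859 UMIs. In endothelial cells it was 1.18%, 3.45%, 0% (an interval of 0 to 14.2 over 24 nuclei) and 8.20% after thinning, and 1.74%, 4.28%, 6.45% and 13.6% before. The endothelial share of the knock-in with exercise (2.72 to 18.1) overlapped that of its neurons, so background cannot be told apart from expression in the thinned shares of that library.

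To compare libraries, a gene was taken as measured in a class with at least 100 UMIs over both libraries, and called higher or lower where the CPM ratio was at least 1.5 either way and its counting interval left out equal levels. All 8 members were measured in each of the 4 neuron classes and in oligodendrocytes in every comparison. In precursors, astrocytes and microglia 2 to 5 of them were. Each library enters 1 comparison of genotypes and 1 of exercise, so a genotype and an exercise comparison that share a library are not independent, and their values are only set side by side.

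Genotypes were first set against each other without exercise. Of 52 measured values over 8 classes, 0 were called higher and 6 lower. In the 4 neuron classes 3 of 32 values were called lower. Among all measured genes 6.19%, 9.44%, 14.2% and 7.05% were called lower in the granule, CA1, CA3 and inhibitory classes, and 8.7% to 12.3% higher, so the share of members called lower was within the background.

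Ttbk1 gave the 2 largest differences in neurons, with a log2 ratio of -1.02 (-1.26 to -0.78) in CA3 and -0.70 (-0.88 to -0.53) in CA1 neurons. It was -0.48 (-0.66 to -0.30) in granule and -0.57 (-0.82 to -0.32) in inhibitory neurons, below the size for a call. The third neuron call was Cdk5 in CA3 neurons at -0.67 (-0.92 to -0.42), which was not called when TMM factors, a scaling that trims extreme genes, replaced the class total (-0.55). Mapt stood at -0.19 (-0.25 to -0.14) in granule neurons, and at -0.19, -0.23 and -0.21 in the CA1, CA3 and inhibitory classes, each under the size for a call. Dyrk1a stood between -0.27 in CA1 and -0.47 in inhibitory neurons. Gsk3b was between -0.06 and 0.02 in neurons, with intervals that held equal levels.

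Outside neurons the calls were Dyrk1a in oligodendrocytes (-0.61, -0.85 to -0.36) and microglia (-0.81, -1.20 to -0.42) and Fyn in astrocytes. The Dyrk1a value in oligodendrocytes was not called under TMM factors (-0.51). The Fyn value in astrocytes, -1.09 (-2.12 to -0.22), rests on 11 UMIs in 62 nuclei of the knock-in, and it was -0.39 and not called with no doublets left out. The Dyrk1a value in microglia was -0.25 and not called under that setting. Among all genes 14.1%, 13.8% and 18.7% were called lower in oligodendrocytes, microglia and astrocytes, and 12.7%, 6.46% and 5.39% higher. In oligodendrocyte precursors, where no member was called, the shares were 10.5% lower and 5.59% higher. Mapt in oligodendrocytes was -0.34 (-0.40 to -0.28), not called.

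**Figure D3:**
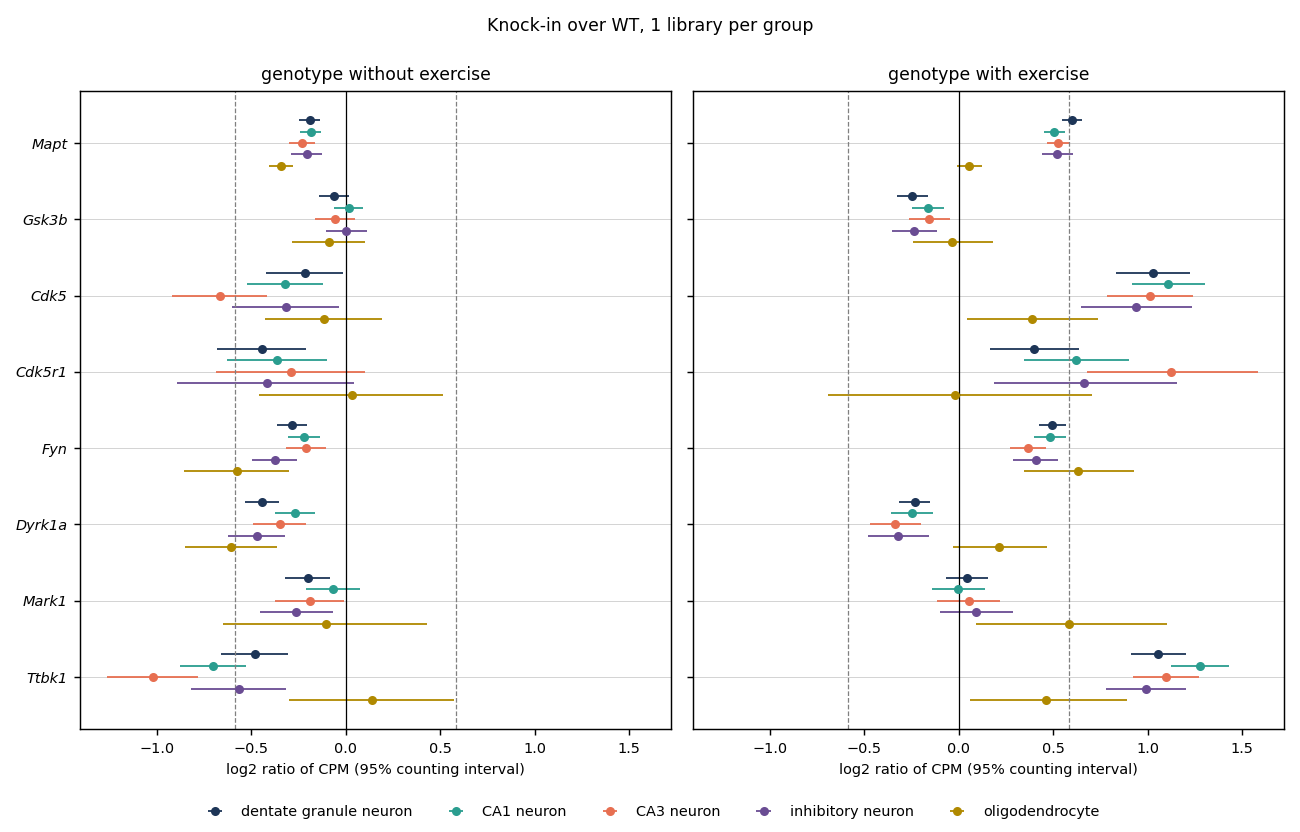
log2 ratio of knock-in over WT for each of the 8 genes in 5 classes, without exercise (left) and with exercise (right), with 95% counting intervals and dashed lines at a ratio of 1.5 either way. Cdk5 and Ttbk1 in neurons lie to the left of 0 without exercise and near 1 with exercise, whereas Gsk3b stays near 0 on the left and lies between -0.25 and -0.16 in neurons on the right.

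With exercise, in libraries separate from those above, 16 of 54 measured values were called higher in the knock-in and 0 lower. In the 4 neuron classes 12 of 32 were called higher, 3 in each class, against 21.1%, 25%, 25.1% and 22.9% of all genes in the granule, CA1, CA3 and inhibitory classes. The shares of all genes called lower were 6.3%, 4.9%, 4.36% and 3.99%. Ttbk1 and Cdk5 were called in all 4 of these classes. Ttbk1 had log2 ratios of 1.06 (0.91 to 1.20) in granule, 1.27 (1.12 to 1.43) in CA1, 1.10 (0.92 to 1.27) in CA3 and 0.99 (0.78 to 1.20) in inhibitory neurons. Cdk5 had 1.03 (0.83 to 1.22), 1.11 (0.92 to 1.30), 1.01 (0.78 to 1.24) and 0.94 (0.65 to 1.23) in the same order. The Cdk5 value in CA3 neurons was 0.43 (-0.21 to 1.08) after thinning and then not called.

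The other neuron calls with exercise were Cdk5r1 in CA1 (0.62, 0.34 to 0.90), CA3 (1.12, 0.68 to 1.58) and inhibitory neurons (0.66, 0.19 to 1.15), and Mapt in granule neurons (0.60, 0.54 to 0.65). In CA1, CA3 and inhibitory neurons Mapt was at 0.51, 0.53 and 0.52, just under the size for a call. Its granule value was 0.43 and not called under TMM factors, and neither were those of Cdk5r1 in CA1 (0.39) and inhibitory neurons (0.45). In CA3 neurons the Cdk5r1 value was not called after thinning (0.96, -0.33 to 2.38). Fyn had 0.49, 0.48, 0.37 and 0.41 in granule, CA1, CA3 and inhibitory neurons. Gsk3b and Dyrk1a were on the lower side in all 4 neuron classes, between -0.25 and -0.16 and between -0.34 and -0.23, with intervals below 0 and no call. Mark1 lay within 0.09 of equal levels, and its sign turned under other settings.

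Beyond neurons, Fyn in oligodendrocyte precursors had a log2 ratio of 1.20 (0.98 to 1.42), where 17.4% of all genes were called higher. The 66 precursors of WT with exercise held the 8 precursor markers, of which 0 were absent, at 7131 CPM, against 10324 to 11810 in the other libraries, and granule neuron markers at 2699 CPM against 1518 to 2356, and the part of this in the result was not tested. The value was 0.57 at clustering resolution 2.0 and 0.52 after thinning, and then not called. Mapt was also called there (0.61, 0.39 to 0.84) and in astrocytes (0.72, 0.44 to 1.01), where 17.1% of all genes were, and Fyn in oligodendrocytes (0.63, 0.34 to 0.92), where 18.9% were. None of these 3 calls held under every setting: Mapt was 0.44 in precursors and Fyn 0.58 in oligodendrocytes under TMM factors, and Mapt was 0.55 in astrocytes with no doublets left out. Mapt in oligodendrocytes, its class of highest level, differed by 0.06 (-0.01 to 0.12). No member was called in microglia, where 29.8% of all genes were higher and 6.91% lower. The shares of all genes called lower were 9.1% in oligodendrocytes, 8.38% in precursors and 9.32% in astrocytes.

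In WT mice the comparison of exercise with no exercise gave 0 values called higher and 3 lower among 52. In neurons 2 of 32 were called lower, against 5.46%, 7.4%, 9.87% and 6.81% of all genes in the granule, CA1, CA3 and inhibitory classes, and 1.14% to 1.25% of all genes were called higher. They were Cdk5r1 in CA3 neurons at -1.02 (-1.47 to -0.59), on 63 UMIs against 153, and Cdk5 in CA3 neurons at -0.59 (-0.82 to -0.36). The Cdk5 value was not called under TMM factors (-0.42), and the Cdk5r1 value was not called after thinning (-0.84). Cdk5 stood at -0.46, -0.31 and -0.47 in granule, CA1 and inhibitory neurons, and Cdk5r1 at -0.54, -0.46 and -0.43. Mapt was between -0.24 and -0.12 in the 4 neuron classes, and its sign in CA3 turned under 2 other settings. The third call was Fyn in oligodendrocyte precursors at -0.90 (-1.14 to -0.67), where 16.3% of all genes were called lower, and it was -0.40 and not called at resolution 2.0. It uses the 66 precursors of WT with exercise whose low precursor markers are given above, and their part was not tested. Cdk5r1 in CA3 neurons was -0.84 after thinning and then not called, so each of the 3 calls ended under at least 1 setting. No member was called in oligodendrocytes, astrocytes or microglia, where 5.19%, 4.02% and 17.7% of all genes were called lower and 1.1%, 4.26% and 6.6% higher, and 12.2% were called higher in precursors.

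In the knock-in, the comparison of exercise with no exercise gave 19 values called higher and 1 lower among 51. In neurons 12 of 32 were called higher and 0 lower, against 21.9%, 24.3%, 27.1% and 23.5% of all genes in the granule, CA1, CA3 and inhibitory classes. The shares of all genes called lower were 17.9%, 15.9%, 13% and 13.5%. Ttbk1 was called in each neuron class, at 1.39 (1.23 to 1.55) in granule, 1.61 (1.44 to 1.78) in CA1, 1.85 (1.62 to 2.08) in CA3 and 1.5 (1.27 to 1.73) in inhibitory neurons. These were higher than the values of 97.5%, 99.0%, 99.4% and 98.6% of all measured genes of the class. Cdk5 was called in the same classes at 0.78, 1.11, 1.09 and 0.78. Mapt stood at 0.55, 0.51, 0.64 and 0.58, called in CA3, and Fyn at 0.60, 0.56, 0.58 and 0.61, called in granule and inhibitory neurons. Cdk5r1 was called in inhibitory neurons at 0.65 (0.19 to 1.13). Those Mapt, Fyn and Cdk5r1 calls ended under TMM factors (0.46 for Mapt in CA3, 0.54 and 0.47 for Fyn in granule and inhibitory neurons, and 0.52 for Cdk5r1). Gsk3b was on the lower side, between -0.22 and -0.14, without a call.

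In oligodendrocytes exercise in the knock-in gave 4 members called higher and 1 lower, against 24.7% and 20.1% of all genes. Mark1 had 1.0 (0.56 to 1.47), Fyn 0.91 (0.66 to 1.17), Ttbk1 0.78 (0.42 to 1.15) and Dyrk1a 0.69 (0.47 to 0.92). Cdk5r1 was lower at -0.72 (-1.21 to -0.22), and it was 0.043 with no doublets left out, where Mark1 was 0.45 and Dyrk1a 0.53 and neither was called. Mapt had 0.37 (0.31 to 0.43), not called. In microglia Fyn (0.64) and Dyrk1a (0.66) were called higher, where 24.8% of all genes were, and both calls ended under TMM factors (0.48 and 0.50). In astrocytes Mapt was called at 0.59 (0.05 to 1.16), where 36.3% of all genes were called higher, on 34 UMIs in the knock-in without exercise, and the call held under 1 of 9 other settings. No member was called in precursors, where 20.6% of all genes were higher and 7.57% lower, and the shares called lower were 8.77% in astrocytes and 8.12% in microglia.

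**Figure D4:**
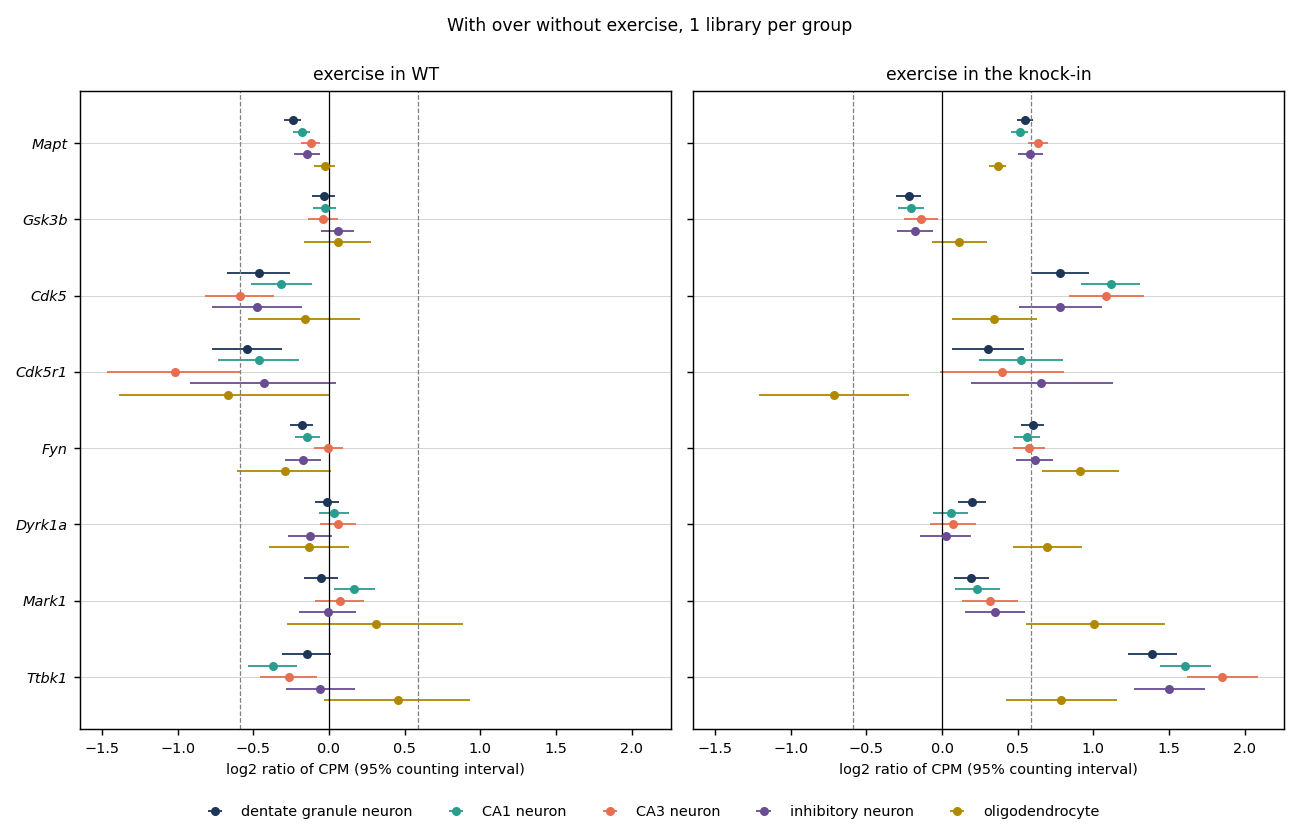
log2 ratio of exercise over no exercise for each of the 8 genes in 5 classes, in WT (left) and in the knock-in (right), with 95% counting intervals and dashed lines at a ratio of 1.5 either way. In the knock-in Ttbk1 lies between 1.39 and 1.85 in neurons, while in WT its values lie between -0.37 and -0.06 there, with a sign in inhibitory neurons that turned under other settings.

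The members' ratios stand against those of all genes, whose median was off 0. The median log2 ratio over all measured genes in the neuron classes was -0.14 to -0.05 for genotype without exercise, 0.20 to 0.25 for genotype with exercise, -0.18 to -0.12 for exercise in WT and 0.10 to 0.19 for exercise in the knock-in. Relative to this median, Mapt in granule neurons was -0.14, 0.39, -0.12 and 0.45 in that order of comparisons, and Ttbk1 was -0.43, 0.85, -0.03 and 1.28. Gsk3b was -0.01, -0.45, 0.09 and -0.32.

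Gene length moved with the ratios as well. In granule neurons the median for exercise in the knock-in was -0.40 over 2332 genes under 10 kb, 0.14 over 5434 genes of 10 to 50 kb, 0.21 over 3105 genes of 50 to 200 kb and 0.24 over 890 longer genes. Genotype without exercise ran the other way, at 0.32, -0.05, -0.15 and -0.15. The short genes Cdk5 and Cdk5r1 were at 0.78 and 0.30 for exercise in the knock-in and at -0.22 and -0.44 for genotype without exercise, which is opposite in sign to the medians of their length class. In oligodendrocytes the trend was steeper, from -1.03 under 10 kb to 1.05 over 200 kb for exercise in the knock-in, and there Cdk5r1 was at -0.72 and Fyn, of 197 kb, at 0.91. The part of length in these results was not tested.

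**Figure D5:**
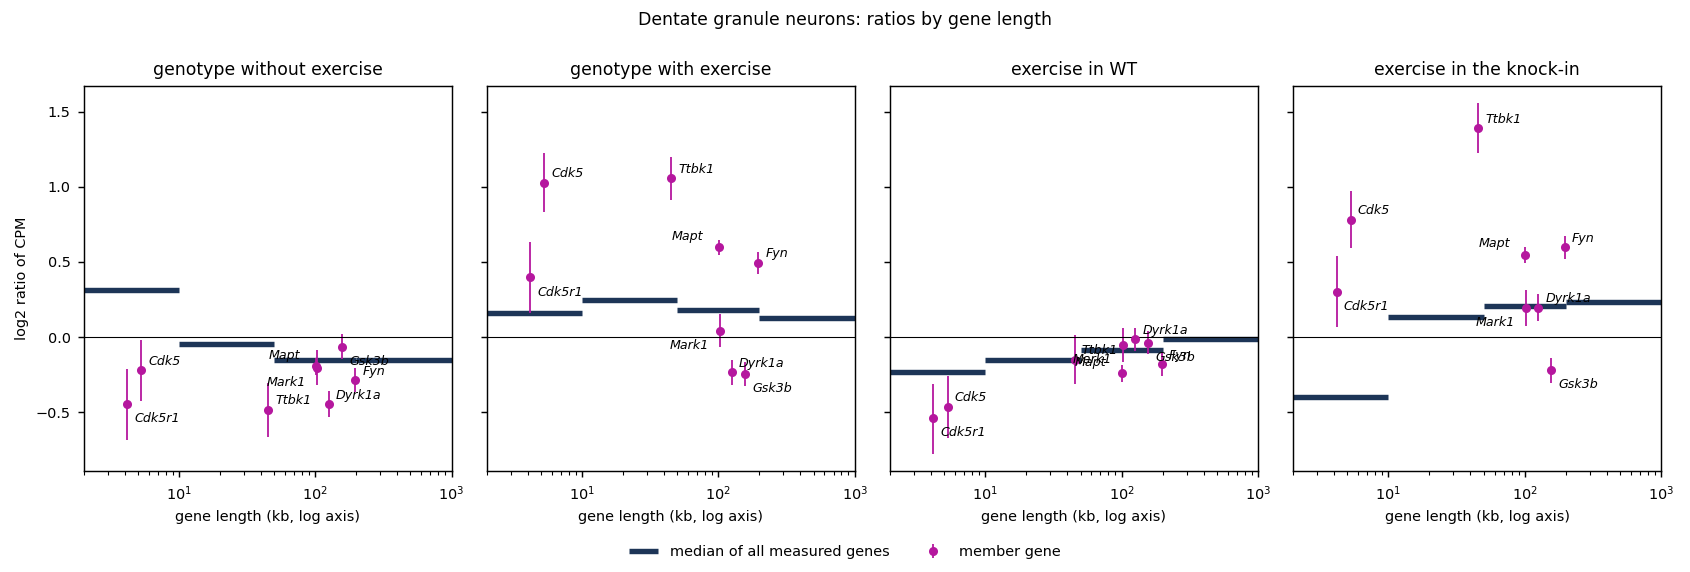
log2 ratio of CPM against gene length (kb, log axis) in dentate granule neurons for the 4 comparisons. Bars are the medians of all measured genes in 4 length classes and points are the 8 genes with 95% counting intervals; Cdk5 and Ttbk1 lie above the bars in both comparisons that use the exercised knock-in.

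Granule neurons of the exercised knock-in lay mostly in a cluster with few nuclei of the other libraries, which lay mostly in clusters 0 and 1. Oligodendrocytes of each knock-in library also lay mostly in a cluster with few nuclei of the others. Levels were therefore also read within a cluster. In the exercised knock-in, 96.2% of granule nuclei belonged to cluster 2, which held 6.80% and 4.89% of those of the WT libraries. In cluster 2 Ttbk1 stood at 65.6 CPM in WT without exercise (74 UMIs), 45.1 in WT with exercise (33 UMIs) and 80.6 in knock-in with exercise (1517 UMIs). In cluster 0 it stood at 41.0, 37.5, 32.3 and, on 61 nuclei and 40 UMIs, 66.8 CPM. Mapt in cluster 0 was 359, 303, 315 and, on 244 UMIs, 408 CPM. Cdk5 there was 30.2, 22.0, 22.5 and, on 24 UMIs, 40.1 CPM. The knock-in with exercise was the highest for Ttbk1 over the 3 libraries in cluster 2, where the knock-in without exercise had 1 nucleus, and for these 3 genes over the 4 libraries in cluster 0. For Ttbk1 both WT libraries lay nearer to the knock-in with exercise in cluster 2 than over the whole granule class. Intervals were not computed within clusters, so these orders are not shown to exceed counting error. CA3 neurons lay in 1 cluster in every library.

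Oligodendrocytes belonged mostly to cluster 6 in the WT libraries (89.0% and 90.9%). Cluster 9 held 93.3% of those of the unexercised knock-in, and cluster 8 held 97.4% of those of the exercised knock-in. Mapt in cluster 6 was 1932 and 1929 CPM in the WT libraries and 1525 in 100 nuclei of the knock-in without exercise. In cluster 9 it was 1886 CPM in 56 nuclei of WT without exercise and 1525 in the knock-in without exercise. In cluster 8 Mapt was 1955 in 106 nuclei of WT without exercise and 1974 in the knock-in with exercise. Ttbk1 in cluster 8 was 66.1 CPM on 14 UMIs in WT without exercise and 65.8 CPM in the knock-in with exercise, and WT without exercise held 32.0 CPM in cluster 6.

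Other genes of tau control were read from 6 lists of 126 genes in all. Of 27 further tau kinases and activators, all were measured for genotype with exercise in granule neurons, 8 were called higher and 0 lower, where 21.1% of all genes were higher and 6.3% lower, with a median log2 ratio of 0.43 against 0.20 over all genes. Mark4, another kinase of the Mark family, stood at 47.1 against 25.3 CPM (0.90), and Csnk1e, a casein kinase, at 34.5 against 16.2 CPM (1.09). Mapk8, a stress-activated kinase, stood at 60.5 against 76.6 CPM (-0.34) and was not called. For genotype without exercise 0 of 26 were called higher and 6 lower, where 12.3% and 6.19% of all genes were, with a median of -0.34 against -0.05, and Csnk1e stood at 13.1 against 25.9 CPM (-0.98). For exercise in WT the counts were 0 and 1, where 1.14% and 5.46% of all genes were called. For exercise in the knock-in they were 14 and 0 of 27, where 21.9% and 17.9% were, with a median of 0.63 against 0.10. In CA3 neurons 12 of 25 were called lower and 1 higher for genotype without exercise, where 14.2% and 8.7% of all genes were.

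The 23 phosphatase genes, which encode the enzymes that remove phosphate from tau and their regulators, were all measured in granule neurons. With exercise 4 were called higher and 0 lower in the knock-in, where 21.1% and 6.3% of all genes were. Their median log2 ratio was 0.44 against 0.20 over all genes. Ppp2r2c and Ppp2r2b, regulatory subunits of protein phosphatase 2A, stood at 228 against 126 CPM (0.86) and at 216 against 122 CPM (0.83), while Ppp3ca, the catalytic subunit of calcineurin, stood at 2857 against 3701 CPM (-0.37) and was not called. Without exercise 0 were called higher and 1 lower in the knock-in, where 12.3% and 6.19% of all genes were. The lower one was Ppp2r2c at 90.5 against 140 CPM (-0.62). For exercise in WT 2 of 23 were called lower, where 5.46% of all genes were, and for exercise in the knock-in 6 were called higher, where 21.9% were.

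Among 22 microtubule-binding protein genes in granule neurons, 2 were called higher and 1 lower for genotype without exercise, near the 12.3% and 6.19% of all genes. Stmn1 and Stmn2, stathmins that destabilise microtubules, stood at 35.3 against 16.8 CPM (1.07) and at 32.2 against 14.6 CPM (1.14), and Map6, a stabiliser, at 57.8 against 98.9 CPM (-0.77). With exercise 4 were called higher and 0 lower, near the 21.1% of all genes called higher, among them Map7d1 at 72.6 against 38.4 CPM (0.92), whereas Map2, the dendritic relative of tau, stood at 514 against 567 CPM (-0.14) without a call. Of 24 genes for tau turnover and modification 20 were measured, and 2 were called higher and 1 lower without exercise. Hsp90ab1 and Hspa8, chaperones, stood at 151 against 88.0 CPM (0.78) and at 73.3 against 43.9 CPM (0.74), and Bin1, a membrane-bending protein that binds tau, at 88.3 against 156 CPM (-0.82). With exercise 5 of 20 were called higher, also near 21.1%, including the calpains Capn1 (1.11) and Capn2 (1.07), proteases that cleave the activator encoded by Cdk5r1.

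Of 19 genes of Gsk3b control, 16 were measured in granule neurons. Without exercise 0 were called higher and 2 lower in the knock-in, where 12.3% and 6.19% of all genes were. Dvl1, a Wnt signal carrier, stood at 19.2 against 40.0 CPM (-1.06). With exercise 6 of 16 were called higher and 2 lower, where 21.1% and 6.3% of all genes were. Akt1 stood at 14.1 against 7.26 CPM (0.95). Of 13 partners of Fyn, all measured in granule neurons, 4 were called higher and 2 lower with exercise, against the same shares of all genes. Lyn and Yes1, Src-family relatives, were the lower ones at 7.30 against 17.2 CPM (-1.23) and 14.1 against 22.6 CPM (-0.68), and Src was higher at 94.2 against 56.5 CPM (0.74). In oligodendrocytes 8 of 11 measured partners of Fyn were called higher with exercise, where 18.9% of all genes were. The median of these 11 was 1.07 against 0.08 over all genes, whereas in granule neurons the 13 partners had 0.16 against 0.20. In oligodendrocytes the median of all genes for genotype with exercise ran from -0.32 under 10 kb to 0.63 over 200 kb. The median depth of oligodendrocytes was 2811.5 UMIs in the knock-in with exercise and 1738 in WT with exercise. The part of gene length, of depth and of RNA from other cell types in the count of partners was not tested.

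The genes most like each member across the 14 classes were found by Pearson correlation of log2(mean CPM + 1) among 11217 genes. The 14 points share libraries, depth and clustering, and the coefficients are descriptions. Among the genes most like Mapt were Kif3a (r = 0.94) and Clip3 (0.92), each highest in oligodendrocytes. Cdk5 was most like Josd2 (0.94), Apbb1 (0.93) and Vmp1 (0.93), also highest in oligodendrocytes. Fyn was most like S100a2 (0.91), Scel (0.90) and Arhgap35 (0.90), highest in the precursors, and Ttbk1 like Pus7 (0.95), Fsd1 (0.94) and Hdx (0.94), highest in 3 neuron classes. Gsk3b was most like Nxn (0.94), Amotl1 (0.94) and Snx21 (0.92), Cdk5r1 like Rbm39 (0.92), E2f5 (0.92) and Ppid (0.91), and Mark1 like Rapgef4os1 (0.82), Actr1b (0.82) and Slc1a1 (0.81). Srek1ip1 (0.90) was among the genes most like Dyrk1a. Among the 28 pairs of members, the highest coefficient was that of Mapt and Cdk5 (0.78) and the lowest that of Cdk5r1 and Ttbk1 (-0.77).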

How the data were processed

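Single nuclei of 4 libraries, 1 per group, were read from the deposited UMI count matrices, which the authors made with Cell Ranger (version 5.0.1 per the file headers, 3.1.0 per the submitters' processing notes) on mm10. Intron and strand settings are not given in the sources used here. Kept barcodes had a minimum of 500 genes and of 1000 UMIs and a maximum of 5% mitochondrial UMIs, and the highest doublet scores were removed at 0.8% per 1000 barcodes, which took 5.50% to 8.98% per library. Nuclei were clustered with scanpy 1.11.5 (2000 variable genes, 30 components, 15 neighbours, leiden resolution 1), and clusters were named from marker lists. The minimum of 100 CPM for leading genes, the rule that leaves clusters of several classes unnamed, and the exclusion of erythrocyte and choroid plexus markers were set after the clusters were seen. Without that minimum the astrocyte cluster, and without that exclusion the endothelial cluster, would stay unnamed. Members and lists were chosen with earlier results of these data known.

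UMIs were summed per class and library. Levels have exact Poisson and ratios exact conditional binomial 95% intervals, and shares have Clopper-Pearson intervals. All cover counting error only. Named genes were the 8 members, for each the 3 genes most correlated with it over classes, and from each list the 2 measured genes with the highest and the 2 with the lowest log2 ratio. TMM factors came from edgeR 4.0.16 and median-of-ratios factors from DESeq2 1.42.0, used for scaling and not for tests. The scripts were tested on simulated data. Gene positions came from GENCODE M21 (32158 of 32285 identifiers matched). Values of some genes are not reported here.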

Additional observations from a re-analysis of the deposited data

Results flagged for a closer look

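For 4 pairs of values the 2 libraries of a contrast were called in opposite directions in its 2 settings. The difference between the settings was not tested, because each group was 1 library. Among genes measured in both settings, 6.31% in CA1 and 9.12% in CA3 neurons were likewise called lower in the knock-in without exercise and higher with it, and 4.72% in CA3 neurons were called lower with exercise in WT and higher with exercise in the knock-in.

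Ttbk1 in CA1 neurons had a log2 ratio of knock-in over WT of -0.70 without exercise and 1.27 with exercise. Ttbk1 in CA3 neurons had -1.02 without and 1.10 with exercise. Both Ttbk1 pairs kept their calls under all 9 other settings. Cdk5 in CA3 neurons had -0.67 without and 1.01 with exercise, and these calls held under 5 and 8 of 9 other settings. Cdk5 in CA3 neurons also had a log2 ratio of exercise over no exercise of -0.59 in WT and 1.09 in the knock-in, and these calls held under 3 and 9 of them. The last pair uses the same 4 libraries as the one before it and is not separate from it.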

How the results depend on the processing

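Each value was computed again under 9 other settings. Of 209 values 64 moved out of their main counting interval with TMM factors, 67 with median-of-ratios factors and 20 with no doublets left out. With totals that leave out mitochondrial and the most abundant genes 44 moved, and after thinning 69 of 193. Under each of the remaining settings 9 or fewer moved. Of 45 called values 19 kept their call under every setting that gave a value, 11 of them for Ttbk1, 7 for Cdk5 and 1 for Fyn. With TMM factors 30 calls remained, with median-of-ratios factors 30, with totals that leave out mitochondrial and the most abundant genes 29, with no doublets left out 33, at 1200 UMIs 43 and with 4000 variable genes 40. Where a setting gave fewer values, 36 of 39 remained at 1000 genes, 38 of 43 at resolution 2.0 and 26 of 39 after thinning. The one called value that turned sign was Cdk5r1 in oligodendrocytes for exercise in the knock-in (0.043 with no doublets left out). The count of members called higher for exercise in the knock-in went from 19 to 12 with TMM factors, 12 with median-of-ratios factors and 11 with the reduced totals, and the count called lower from 1 to 2 with the reduced totals, 0 with no doublets left out and 1 after thinning. The count called lower for genotype with exercise was 1 with median-of-ratios factors, the count called higher for genotype without exercise was 1 at resolution 2.0, and the count called lower for exercise in WT was 1 with 4000 variable genes. Of 384 list counts 80 moved by more than 1.5 times with no minimum beyond 1 UMI, and 105 of 370 with a minimum of 400. Settings under which a class lost most of its nuclei gave no ratio: oligodendrocytes at 1000 genes, at resolution 2.0 and after thinning for some comparisons, and microglia of WT with exercise at resolution 2.0. No paired analysis was possible because every group has 1 library and the replicate numbers are all 1. No replicate could be left out for the same reason.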
